A study of Xenopus laevis with 115 samples.

Results

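Among the target sequences against which the reads of a Xenopus laevis nuclear transfer study were counted, 1816 of 72076 carry a gene identifier (XBXL10_1g and a number) with no messenger RNA identifier behind it. The expressed ones were kept here: those whose level, in counts per 1000000 of the library total (CPM), averaged at least 2 over 11 libraries of fertilised ectoderm or over 6 libraries of DMSO-treated endoderm. That left 161 members, 8.87% of the 1816, so the limit of 300 members that the rule also sets was not reached. Of the 70042 targets with a messenger RNA identifier, 22003 (31.4%) reached the same minimum, and 385 of the 1816 had no count in any of the 45 libraries of that set. The levels in these 17 libraries chose the members, so levels in fertilised ectoderm and DMSO endoderm are given below as a description only.

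Nuclear transfer places the nucleus of a donor cell in an egg, and the study asked whether inhibitors of p300 and CBP, related enzymes that acetylate histones, change how far donor nuclei are reset. Donor cells were endoderm of neurulae (stage 18), wild type, grown from stage 12 in 40 µM SGC-CBP30 (CBP30, which blocks the bromodomains of both proteins) or DMSO, or in 30 µM A-485 (A485, which blocks acetyl transfer by both), and the control of the last is A486, about which the labels say nothing more. The CBP30 set holds 11 libraries of ectoderm from fertilised (IVF) gastrulae at stage 11, 12 of nuclear transfer (NT) ectoderm from DMSO donors, 11 of NT ectoderm from CBP30 donors, 6 of DMSO endoderm and 5 of CBP30 endoderm. The A485 set holds 4 libraries of fertilised ectoderm, 13 of A486 and 11 of A485 NT ectoderm, and 6 each of A486 and A485 endoderm. The fertilised and NT ectoderm are the same tissue at the same stage, whereas the endoderm is a different tissue at a later stage, so tissue and stage cannot be told apart in any comparison with endoderm. The labels do not say how many embryos a library holds, so the spread between libraries may be partly technical.

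Each set spans 3 numbered experiments, and the 4 fertilised libraries of the A485 set all belong to experiment 1. Total estimated counts ran from 10352221 to 24923622 per library in the CBP30 set and from 6468976 to 24820727 in the A485 set. The sets were counted against different target lists (44441 targets in the A485 set), so a CPM is relative to a different total in each. Tests were made only within a set, and levels of both sets are at most given side by side. For 2 A485 libraries of experiment 3 the tissue field contradicts the title. The member XBXL10_1g23290, high in endoderm, was at 352 CPM in the one titled as donor and at 0.669 CPM in the one titled as NT ectoderm, and both stayed in the groups of their titles. The 4 donors of experiment 1 in that set are given as ectoderm by cell type but as endoderm by tissue, and the same member was at 83.5 to 177 CPM in them. Known marker genes of ectoderm and endoderm could not be looked up, because the tables used here do not pair these identifiers with symbols.

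The members fall into a small and abundant class and a large and mostly low one. A run of 13 consecutive identifiers, XBXL10_1g44445 to XBXL10_1g44457, has exactly the lengths of the 13 protein-coding genes of the mitochondrial genome in RefSeq, and those targets are called here by the gene whose length they have. The mitochondrial genome encodes subunits of the respiratory chain: cytochrome c oxidase subunits (COX genes), NADH dehydrogenase subunits (ND genes), cytochrome b (CYTB) and parts of the ATP synthase (ATP6 and ATP8). An egg carries a large maternal stock of mitochondria into the embryo, and in nuclear transfer the egg supplies most of them while the donor cell supplies the nucleus. The other 148 members have no name in the files, so nothing can be said of what they encode. Among them 1 pair had consecutive numbers (XBXL10_1g6666 and XBXL10_1g6667). Others had close numbers, such as XBXL10_1g35000 and XBXL10_1g35003 or XBXL10_1g42712 and XBXL10_1g42715, and such near neighbours were not counted.

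Near the minimum, XBXL10_1g30553 (2.03 CPM), XBXL10_1g29238 (2.01 CPM) and XBXL10_1g17619 (2.00 CPM) were kept and XBXL10_1g27053 (1.97 CPM), XBXL10_1g6508 (1.96 CPM) and XBXL10_1g32821 (1.90 CPM) were not. Taking the median in place of the mean gave 145 members, all among the 161. Choosing by TPM, which is scaled for target length, gave 175 members and shared 117 of them.

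The 13 targets of mitochondrial gene length held most of the members' reads. Their summed level was 7783, 15627 and 24943 CPM (lowest, median and highest) in fertilised ectoderm and 11376, 19378 and 27230 CPM in DMSO NT ectoderm. It was 11399, 14443 and 30930 CPM in CBP30 NT ectoderm, 5769, 10632 and 13721 CPM in DMSO endoderm and 6606, 10793 and 15809 CPM in CBP30 endoderm. All 5 groups overlapped, and the 2 lowest DMSO endoderm libraries were both of experiment 1. Over the other 148 members the sum in DMSO endoderm was 980 to 1225 CPM. RNA was selected by its poly(A) tail, so these levels hold only for the tailed part of each transcript. Fewer cells of a type and less RNA per cell cannot be told apart in such bulk libraries.

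**Figure D1:**
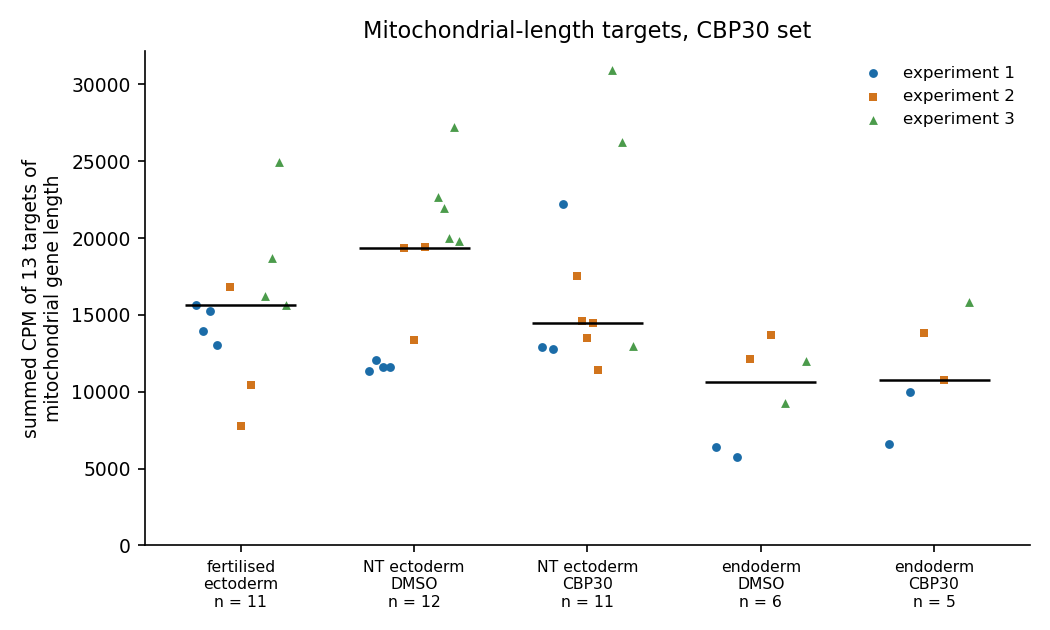
Summed level (CPM, y axis from 0) of the 13 targets of mitochondrial gene length in each library of the CBP30 set, by group (x axis), with the experiment shown by colour and shape and a line at the group median. The points of DMSO NT ectoderm split by experiment, with experiment 1 lowest, and the endoderm libraries lie between 5769 and 15809 CPM.

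Per base of target length, the order of the genes was the same in fertilised, DMSO NT and CBP30 NT ectoderm. In fertilised ectoderm, the COX1-length target stood first at 6313 ± 1806 TPM (SD, n = 11), followed by ATP8 at 5844 ± 2281 TPM, COX2 at 4003 ± 1119 TPM and COX3 at 2831 ± 904 TPM. ATP8 lay within the spread of COX1, whereas COX2 lay below ATP8 and COX3 below COX2 by no more than the SDs of the pair together. ATP8 is only 168 bases long, and TPM depends most on the estimated effective length in such short targets. Below these came ND1 (1344 TPM), CYTB (1069), ATP6 (984), ND2 (735), ND3 (648), ND4 (476), ND5 (385) and ND4L (196), all as mean TPM. ND6, the 1 gene of the 13 that vertebrates encode on the opposite strand, was last at 14.6 TPM.

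In DMSO endoderm the same genes led, with COX1 at 4693 ± 1494 TPM (SD, n = 6), COX2 at 2545 ± 1141, ATP8 at 2367 ± 1259 and COX3 at 2348 ± 1308 TPM. COX2 took the second place from ATP8 there by less than their spread, and ND6 was again last at 5.83 TPM. Mean CPM in fertilised ectoderm was above that in DMSO endoderm for every one of the 13. The ratio was 1.22 for COX3, 1.36 for COX1 and 1.59 for COX2 and up to 2.83 for ND5, so the oxidase subunits differed least and the NADH dehydrogenase subunits ND3, ND4 and ND5 most. These are the groups that chose the members. edgeR's quasi-likelihood test with Benjamini-Hochberg adjustment over all targets called 9 of the 13 lower in endoderm (beside 33.6% of all targets lower and 35.1% higher), which is given as a description. After its scaling for composition 2 of the 13 lay above 0 in endoderm, and without the DMSO donors of experiment 1 it called 3 lower and 1 higher.

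Between DMSO NT and fertilised ectoderm none of the 13 was called in edgeR's test or in DESeq2, with log2 fold changes from -0.04 to 0.18 and a smallest edgeR adjusted p of 0.465. The experiments went different ways. In experiment 1 the median summed level was 11597 CPM in NT and 14618 CPM in fertilised ectoderm, and 12 of 13 were lower, 2 of them called beside 2.02% of all targets. In experiment 2 it was 19368 against 10448 CPM and in experiment 3 it was 21961 against 17468 CPM, with 12 and 11 of 13 higher and none called beside 22.9% and 4.41% of all targets. Directions and calls are from the fits, which scale for composition as the summed CPM does not. Their median log2 fold changes were -0.30, 0.21 and 0.17 in experiments 1, 2 and 3. The fertilised libraries helped to choose the members, whereas all 13 passed the filter on low counts in each comparison of the CBP30 set.

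No response of the 13 targets to CBP30 was called in NT ectoderm. Neither edgeR nor DESeq2 called any of them between CBP30 and DMSO NT ectoderm, with log2 fold changes from -0.18 to 0.19. The median summed level of CBP30 NT ectoderm was 12917 CPM in experiment 1, 14443 in experiment 2 and 26227 in experiment 3. All 13 were higher than with DMSO in experiment 1 (median log2 fold change 0.40), all 13 lower in experiment 2 (median -0.21) and 9 higher in experiment 3 (median 0.06), and edgeR called none within an experiment, beside 0.123%, 0.0648% and 0.0184% of all targets. In the donor endoderm all 13 were higher with CBP30 and none was called, with a median log2 fold change of 0.86 and a smallest adjusted p of 0.396 in edgeR. That median was 0.10 without library 1 of experiment 3, the highest CBP30 donor, and 9 of 13 were then higher. The A485 files analysed do not list these 13 targets.

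The remaining 148 members were listed in both sets, at the same length in both. Their median length was 2065 bases (139 to 9684), against 1074 bases over all 1816 targets without a messenger RNA identifier. Targets with a messenger RNA identifier shifted likewise, from a median of 888 bases over all to 1856 bases in those at the same minimum. Greater length was thus not particular to the members. The highest in TPM of its length class was XBXL10_1g27186 (139 bases) among the shortest, then XBXL10_1g36296 (203 bases), XBXL10_1g35003 (786 bases), XBXL10_1g37884 (1513 bases) and, among the longest, XBXL10_1g18481 (2163 bases). Estimated counts were whole numbers (within 0.001) in at least 90% of the libraries scored for 16 of the 148 and in under 10% for 97. The libraries scored were not all 45 for every member. A count that is not whole means that the counter split reads between this target and others that share sequence with it, so levels of the 97 depend on that split. All 13 mitochondrial-length targets had whole counts in at least 90% of the libraries scored.

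By the ratio of mean CPM with 0.5 added, 26 of the 148 were at least 4-fold higher in DMSO endoderm than in fertilised ectoderm, 23 were at least 4-fold lower and 99 lay between. These lists rest on the libraries that chose the members, so only their behaviour in NT ectoderm and in the A485 set goes beyond the choice. edgeR called 114 of 153 tested members (74.5%) in DMSO endoderm against fertilised ectoderm, beside 68.7% of all targets, and nothing is read from that count. DMSO NT ectoderm differed from DMSO endoderm in 110 of 155 tested members (48 higher and 62 lower) beside 68.0% of all targets (34.0% each way), and the endoderm libraries there are the same ones.

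The endoderm members were low in NT ectoderm. Over all 26, the mean level in DMSO NT ectoderm was under 10% of that in DMSO endoderm for 22 and under 25% for 25, with a median of 4.84% and a highest value of 29.8% (XBXL10_1g26494). These percentages share the endoderm libraries that made the list, which lowers them. XBXL10_1g23290, of 5362 bases, was the most abundant of them. Its 6 DMSO endoderm libraries held 31.5, 16.0, 133, 160, 146 and 119 CPM, with both libraries of experiment 1 lowest, and its CBP30 endoderm libraries held 122, 97.5, 279, 159 and 126 CPM. It reached at most 1.36 CPM in fertilised ectoderm and 1.03 CPM in DMSO NT ectoderm, where the medians were 0 and 0.0439 CPM, and the endoderm and ectoderm libraries did not overlap.

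The libraries of the A485 set had no part in the choice. There XBXL10_1g23290 was at 83.5, 220 and 311 CPM (lowest, median and highest) in A486 endoderm and at 169, 253 and 574 CPM in A485 endoderm. Its 4 fertilised libraries held 0, 0.139, 0 and 0 CPM, 2 counts in all, and A486 NT ectoderm held 0 to 0.320 CPM. The ratio of A486 endoderm to fertilised ectoderm in experiment 1 was 3513, with an exact 95% interval of 973 to 29011 that covers the counting error of those 2 reads only. A486 NT ectoderm was lower than A486 endoderm by a log2 fold change of -11.4 ± 0.39 (SE), with an edgeR adjusted p of 6.60e-16.

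XBXL10_1g1845 (4009 bases) followed the same pattern at about the same abundance. DMSO endoderm held 64.1, 65.2, 94.9, 99.4, 146 and 80.3 CPM, and fertilised and DMSO NT ectoderm reached at most 1.47 and 2.53 CPM. In the A485 set A486 endoderm held 42.4, 46.5, 106, 58.2, 118 and 104 CPM, the fertilised libraries 0.368, 0.301, 0.281 and 0.968 CPM, and A486 NT ectoderm 0.0671, 0.477 and 1.73 CPM (lowest, median and highest). The endoderm libraries stood apart from all ectoderm libraries in both sets. The edgeR log2 fold change was 7.17 ± 0.44 for A486 endoderm against fertilised ectoderm (adjusted p 5.16e-05) and -7.61 ± 0.46 for A486 NT ectoderm against endoderm (adjusted p 8.63e-12).

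XBXL10_1g42799 (5298 bases) was lower in level and closer to the ectoderm libraries, but did not overlap them. DMSO endoderm held 8.46, 10.3, 8.82, 16.5, 19.3 and 14.2 CPM, and A486 endoderm 16.2, 22.6, 10.7, 15.3, 28.3 and 27.7 CPM. Its fertilised libraries in the A485 set held 1.25, 1.56, 1.33 and 0.704 CPM and A486 NT ectoderm at most 2.48 CPM, again with no overlap with endoderm. XBXL10_1g27030 (1247 bases) had no count in the 4 fertilised libraries of that set and 14.1 and 6.43 CPM in the A486 donors of experiment 1, which puts the endoderm at least 191-fold higher, against a floor of 3 counts over the group. XBXL10_1g23303 (9684 bases), XBXL10_1g39751 (1771 bases) and XBXL10_1g42792 (1661 bases) were called higher too, by 8.10, 7.41 and 6.27 on the log2 scale with edgeR adjusted p of 0.000118, 0.000122 and 0.00145. XBXL10_1g32980 (1783 bases) was at 9.81 to 31.1 CPM in A486 endoderm and at most 1.32 CPM in A486 NT ectoderm.

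**Figure D2:**
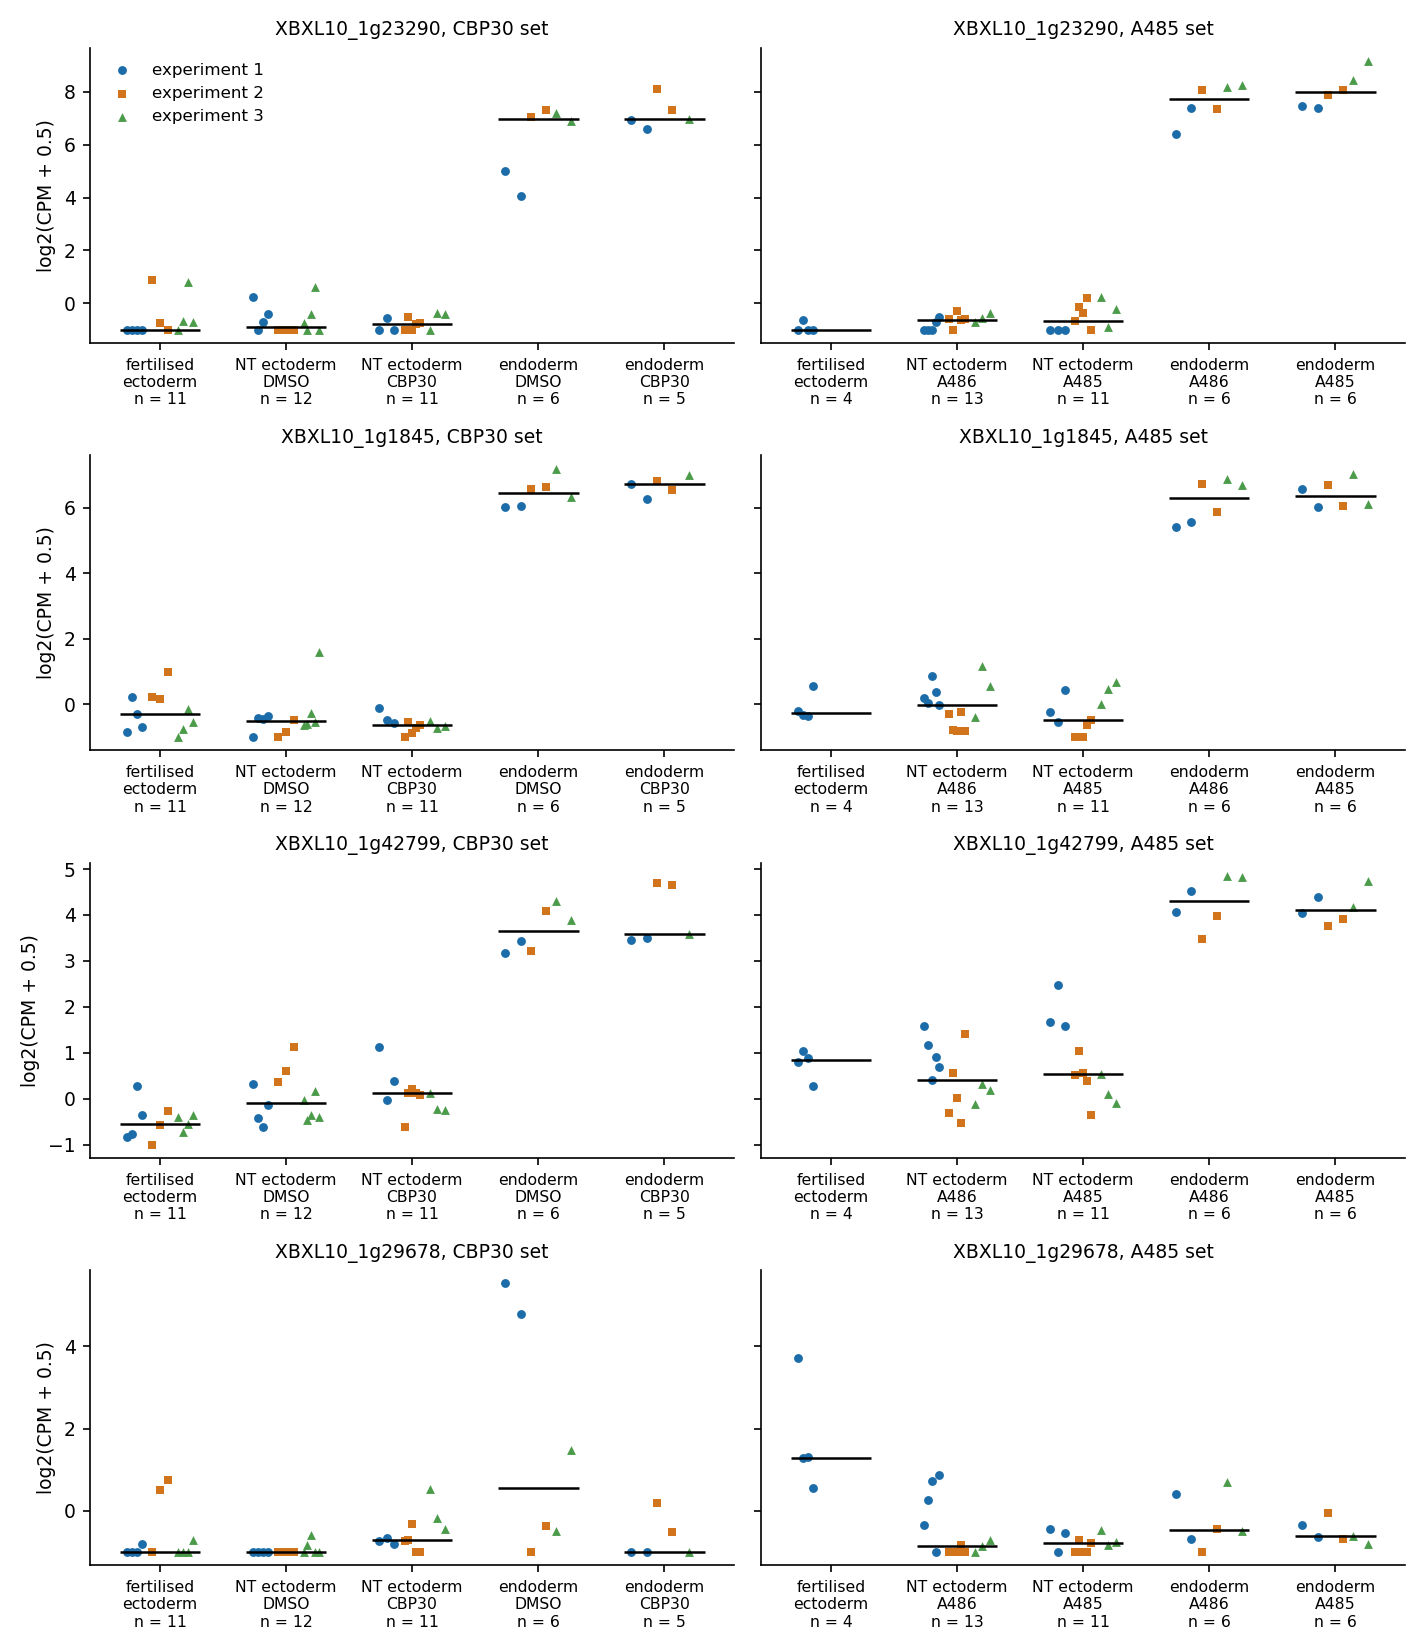
Level of 4 members in every library, as log2(CPM + 0.5) on the y axis, by group on the x axis for the CBP30 set (left) and the A485 set (right), with a line at the group median. The endoderm libraries of XBXL10_1g23290, XBXL10_1g1845 and XBXL10_1g42799 lie above the ectoderm libraries in both sets, and XBXL10_1g29678 is high in the DMSO donors of experiment 1 alone and, in the A485 set, highest in a fertilised library at 12.7 CPM.

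Over the endoderm list, 23 of 26 members had a higher mean in A486 endoderm than in fertilised ectoderm of the A485 set. Some of the 23 were near 0 in both groups, such as XBXL10_1g4681 (0.0753 against 0.0661 CPM) and XBXL10_1g2736 (0.204 against 0.0176 CPM). A486 endoderm against fertilised ectoderm was fitted on experiment 1, with 2 and 4 libraries, and edgeR called 54 of 121 tested members (44.6%), 30 higher and 24 lower, beside 47.9% of all targets (24.6% higher and 23.4% lower). Without library 2 of the A486 donors the count was 31. Of the 26, 15 passed the filter on low counts, 11 were called higher and 1 (XBXL10_1g15346) lower. In A486 NT ectoderm against A486 endoderm, 87 of 124 tested members (70.2%) were called, 40 higher and 47 lower, beside 68.9% of all targets (34.5% and 34.4%). Of the 26 endoderm members 13 passed the filter there, and 12 were called lower and none higher. A member can pass the filter through its endoderm libraries alone, so the counts over those that passed favour a difference. The shares of called members lie close to those of all targets, so being called between these tissues was not particular to the members.

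The 3 endoderm members that did not keep their direction were all uneven among the DMSO donors. Members that kept theirs could range widely there too, such as XBXL10_1g10821 (0.222 to 20.2 CPM) and XBXL10_1g26475 (0 to 8.44 CPM). XBXL10_1g29678 (1313 bases) was at 45.6 and 27.2 CPM in the DMSO endoderm of experiment 1 and at 0, 0.279, 0.213 and 2.30 CPM in experiments 2 and 3. Its CBP30 endoderm held at most 0.644 CPM, and in the A485 set its fertilised libraries held 12.7, 1.92, 1.97 and 0.979 CPM against at most 1.12 CPM in A486 endoderm. XBXL10_1g37068 (714 bases) was at 28.2, 18.2 and 24.5 CPM in the 2 DMSO donors of experiment 1 and in library 2 of experiment 3 and at no more than 0.106 CPM in the other 3. XBXL10_1g15346 (2059 bases) was at 7.30, 2.81 and 5.2 CPM in those same 3 donors and at 0 to 0.0528 CPM in the rest. For all 3 the same 3 DMSO donors were the highest, as they were for 7 of the 23 ectoderm members, XBXL10_1g37884 and XBXL10_1g39748 among them. In the A485 set XBXL10_1g15346 held 4.68, 0.951, 1.12 and 1.97 CPM in fertilised ectoderm. It had no count in the 2 A486 donors of experiment 1, at least 24.5-fold lower, a minimum that covers counting error only and rests on those 2 donors.

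The ectoderm members were present in NT ectoderm. Over the 23, DMSO NT ectoderm held a median of 115% of the fertilised mean (59.5% to 263%), and these percentages share the fertilised libraries of the choice. XBXL10_1g37884 (1513 bases), the most abundant, was at 34.8, 113 and 306 CPM (lowest, median and highest) in fertilised ectoderm and at 1.58, 5.97 and 46.7 CPM in DMSO endoderm. It was at 25.2, 129 and 274 CPM in DMSO NT ectoderm and 60.7, 247 and 374 CPM in CBP30 NT ectoderm, which overlapped. Of the 23, 22 again had a higher mean in fertilised ectoderm than in A486 endoderm in the A485 set, and the exception was XBXL10_1g36514. Its A486 endoderm mean of 2.17 CPM rested on 1 donor at 8.69 CPM and was 0.864 CPM without it, below the fertilised mean of 1.52 CPM. The means of the 22 were not recomputed without their highest library, so the count stays as given. Of the 23, 22 passed the filter in A486 NT ectoderm against endoderm and 21 were called higher (beside 34.5% of all targets), and here too a member can pass through the group where it is high. Examples are XBXL10_1g39748 at a log2 fold change of 4.58 ± 0.45 (edgeR adjusted p 1.60e-08) and XBXL10_1g35000 at 4.09 ± 0.64 (adjusted p 9.81e-06).

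Within experiment 1 of the A485 set several ectoderm members were nearly gone from the A486 donors. XBXL10_1g39748 held 302, 81.4, 119 and 57.0 CPM in fertilised ectoderm and 1.06 and 1.56 CPM in the 2 donors, and XBXL10_1g30044 (1642 bases) held 751, 38.5, 158 and 192 CPM against 0.829 and 2.08 CPM. Neither overlapped, with log2 fold changes of -6.16 and -7.04 (edgeR adjusted p 0.00234 and 0.00872). XBXL10_1g30044 lost its call without either donor (adjusted p up to 0.0565). XBXL10_1g44339 held 1.98, 1.52, 1.98 and 2.96 CPM in fertilised ectoderm and no count in those donors, at least 23.7-fold lower. XBXL10_1g43070, which is not one of the ectoderm members, also had no count there, at least 47.8-fold lower than fertilised ectoderm. Its call (edgeR adjusted p 0.0342) was lost without fertilised library 3 and without fertilised library 4. These minimum folds cover counting error only and rest on the 2 donors. XBXL10_1g43070 was at 6.22 and 2.56 CPM in 1 A486 donor each of experiments 2 and 3.

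**Figure D3:**
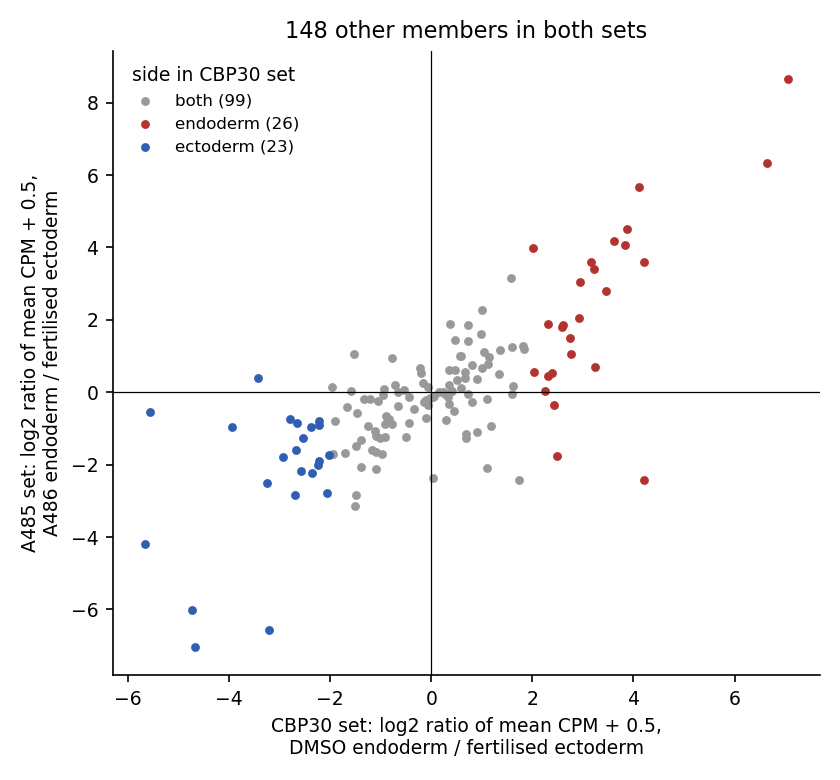
Each point is 1 of the 148 members outside the mitochondrial run, placed by the log2 ratio of mean CPM + 0.5 of endoderm to fertilised ectoderm in the CBP30 set (x axis, 6 and 11 libraries) and in the A485 set (y axis, 6 and 4 libraries). Of the 26 members on the endoderm side of the CBP30 set (red), 23 lie above 0 in the A485 set, and of the 23 on the ectoderm side (blue), 22 lie below 0.

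Whether NT ectoderm from control donors matched fertilised ectoderm was then compared in both sets. In the CBP30 set edgeR called 10 of 138 tested members (4 higher and 6 lower in DMSO NT ectoderm) beside 22.8% of all targets (12.6% and 10.1%), and DESeq2 called 17. The count was 4 without experiment 2 and 6 without experiment 3. No share of all targets is given for DESeq2 or for these fits, so nothing is read from their counts. With the experiment number as a block the count was 18, beside 30.8%. The fertilised libraries chose the members, so nothing is read from the difference between those shares. In the A485 set, whose libraries did not choose them, edgeR called 39 of 109 tested members (35.8%) between A486 NT and fertilised ectoderm of experiment 1 (5 and 4 libraries), 23 higher and 16 lower, beside 28.3% of all targets (14.8% higher and 13.5% lower). The fits differ in libraries, experiments and target lists, so the counts are set side by side and not compared.

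Among the 23 that were higher, XBXL10_1g41906 (2228 bases) was the most clear-cut. Its fertilised libraries held 0.786, 0.726, 0.699 and 0.868 CPM and the A486 NT libraries of experiment 1 held 3.11, 3.17, 3.12, 4.05 and 2.67 CPM. The groups did not overlap, and the log2 fold change was 2.11 ± 0.21 (edgeR adjusted p 0.000254). In the CBP30 set it was at 1.02, 2.12 and 3.15 CPM in fertilised and 1.75, 3.47 and 5.82 CPM in DMSO NT ectoderm, which overlapped. XBXL10_1g19746 (1548 bases) held 6.03, 7.10, 2.67 and 6.60 CPM in fertilised and 41.9, 9.86, 44.0, 24.4 and 11.7 CPM in A486 NT ectoderm (log2 fold change 2.28 ± 0.50, edgeR adjusted p 0.00918), with every NT library above every fertilised one. XBXL10_1g10168 (2522 bases) held 0.567, 0.485, 0.872 and 0 CPM against 2.12, 2.88, 2.43, 2.33 and 4.60 CPM (log2 fold change 2.59 ± 0.54, edgeR adjusted p 0.00729). In the CBP30 set it was at 26.9, 38.8 and 51.5 CPM in fertilised and 26.0, 34.2 and 37.6 CPM in DMSO NT ectoderm, with a log2 fold change of -0.31 (edgeR adjusted p 0.0514). Its tissue direction also differed between the sets. Endoderm against fertilised ectoderm was at a log2 fold change of -1.17 in the CBP30 set and 3.81 in experiment 1 of the A485 set. The cause was not tested, and the rise of this member rests on its low level in the A485 set.

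Other large rises were less secure. XBXL10_1g36514 (1982 bases) rose by 2.92 on the log2 scale (edgeR adjusted p 0.0294), XBXL10_1g42712 (1684 bases) by 2.76 (adjusted p 0.0403) and XBXL10_1g39929 (1816 bases) by 2.52 (adjusted p 0.0429). Each overlapped between the groups and lost its call without any 1 of 4, 6 and 6 libraries, fertilised library 1 among them, with edgeR adjusted p up to 0.0700, 0.0894 and 0.0955. XBXL10_1g39929 was at 3.43, 36.3, 11.6 and 7.76 CPM in fertilised and 107, 15.4, 177, 71.7 and 25.8 CPM in A486 NT ectoderm of experiment 1, and the groups overlapped. In the CBP30 set its fertilised and DMSO NT libraries ran from 9.30 to 294 CPM and from 21.0 to 369 CPM.

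Of the 16 that were lower, XBXL10_1g36211 (9142 bases) held 8.31, 10.4, 7.10 and 12.8 CPM in fertilised and 3.04, 3.73, 3.70, 2.65 and 4.37 CPM in A486 NT ectoderm. It did not overlap and fell by 1.4 on the log2 scale (SE 0.23, edgeR adjusted p 0.00223). This member stood at 6.56 to 13.0 CPM in A486 endoderm, near the fertilised level and above NT ectoderm of experiment 1. XBXL10_1g15346, already described in the donors, fell by 3.53 (SE 0.68, edgeR adjusted p 0.00506) and XBXL10_1g15126 (2787 bases) by 2.39 (SE 0.52, edgeR adjusted p 0.00870). The groups of XBXL10_1g15346 did not overlap, whereas those of XBXL10_1g15126 did. Over all experiments the A486 NT mean of XBXL10_1g15126 was 2.98 CPM, against 2.81 CPM in the fertilised libraries of experiment 1. For XBXL10_1g15126 the direction was opposite in the CBP30 set, at 0, 3.31 and 10.8 CPM in fertilised and 3.63, 7.0 and 22.7 CPM in DMSO NT ectoderm. There XBXL10_1g15126 was called higher in DMSO NT ectoderm, at a log2 fold change of 1.31 (edgeR adjusted p 0.0397), though the groups overlapped. XBXL10_1g39748 (1817 bases), XBXL10_1g28152 (1527 bases) and XBXL10_1g11390 (915 bases) fell by 1.90, 1.84 and 1.47 (edgeR adjusted p 0.0133, 0.0139 and 0.00592). In the CBP30 set their log2 fold changes were 0.40, 0.19 and -0.67, and only the last was called (edgeR adjusted p 0.0233).

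Of the members tested, 1 was called for an inhibitor in NT ectoderm by edgeR, and it was called for A485. Few endoderm members were tested there, 9 of 26 for CBP30 and 4 of 26 for A485. Between CBP30 and DMSO NT ectoderm edgeR called 0 of 140 tested members beside 0.0% of all targets. At an unadjusted p under 0.05 there were 11 members (of 1155 among all 25668 targets, 4.50%). DESeq2 called 1, for which no share of all targets is given. The smallest adjusted p was 0.166 among the members and 0.0557 over all targets. The median log2 fold change was 0.00 over the members and -0.01 over all targets. Some of the abundant ectoderm members had higher medians with CBP30, such as XBXL10_1g39929 at 207 against 70.9 CPM and XBXL10_1g42712 at 32 against 13.8 CPM, and neither was called (edgeR adjusted p 1.00 for both). Of the 22 ectoderm members tested, 13 were higher and 9 lower with CBP30, at a median log2 fold change of 0.105.

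The member nearest to a call was XBXL10_1g26504 (1157 bases), the 1 that DESeq2 called. DMSO NT ectoderm held 0.285, 3.04 and 13.6 CPM (lowest, median and highest) and CBP30 NT ectoderm 0.333, 0.656 and 1.68 CPM. The groups overlapped through 2 DMSO libraries, at 0.285 and 1.01 CPM, and the log2 fold change was -2.60 ± 0.48 (edgeR adjusted p 0.166, DESeq2 adjusted p 7.95e-05). The DMSO libraries ran from 1.01 to 2.30 CPM in experiment 1 and from 2.64 to 4.04 CPM in experiment 2. In experiment 3 they ran from 0.285 to 13.6 CPM, which spans both of those ranges. XBXL10_1g23635 (log2 fold change 0.80, adjusted p 0.821) and XBXL10_1g39751 (-2.79, adjusted p 0.821) came next and were not called by edgeR over all experiments. XBXL10_1g39751 ranged from -5.61 to -0.08 over its alternatives and was called within experiment 2 (edgeR adjusted p 0.0432).

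In the A485 set edgeR called 1 of 107 tested members between A485 and A486 NT ectoderm, beside 0.0339% of all targets (7 of 20667, 0.0145% higher and 0.0194% lower). At an unadjusted p under 0.05 there were 8 members, beside 9.49% of all targets. DESeq2 called 2, for which no share of all targets is given. The called member was XBXL10_1g33259 (707 bases). A485 NT ectoderm held 19.4, 15.9 and 32.6 CPM in experiment 1, then 5.50, 5.12, 5.15, 8.48 and 4.48 CPM in experiment 2 and 12.3, 9.85 and 13.8 CPM in experiment 3. A486 NT ectoderm held 2.60 to 5.37, 2.01 to 5.76 and 4.02 to 6.38 CPM in the same experiments. The groups did not overlap in experiments 1 and 3 and overlapped in experiment 2.

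Its log2 fold change was 1.60 ± 0.29 (edgeR adjusted p 0.0316), and it lost its call in 6 of 13 alternatives with log2 fold changes of 0.73 to 2.54. The call was lost without experiment 1 (1.04), without experiment 3 (1.71) and without the NT library whose tissue field contradicts its title (1.58). Within experiments the log2 fold change was 2.54 (edgeR adjusted p 0.0115) in experiment 1, 0.73 (0.499) in experiment 2 and 1.29 (0.0546) in experiment 3. In CBP30 against DMSO NT ectoderm the same member had a log2 fold change of -0.38 (edgeR adjusted p 1.00). Its DMSO NT libraries ran from 0.932 to 11.9 CPM and its CBP30 NT libraries from 1.12 to 9.07 CPM, and they overlapped.

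XBXL10_1g26504 shows a control group that is not uniform. A486 NT ectoderm held 57.3, 46.8, 80.0, 61.4 and 78.7 CPM in experiment 2, and 0.757 to 3.72 CPM in experiment 1 and 1.16 to 8.92 CPM in experiment 3. A485 NT ectoderm held 0.804 to 1.95 CPM in experiment 2, 1.4 to 7.35 in experiment 1 and 2.55 to 4.49 in experiment 3. The log2 fold change over all experiments was -3.22 ± 0.80 (edgeR adjusted p 0.314). Within experiment 2 it was -5.78 (edgeR adjusted p 4.32e-07), whereas without experiment 2 it was 0.57 and within experiment 1 it was 1.25. DESeq2 called it over all experiments (adjusted p 0.00684).

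**Figure D4:**
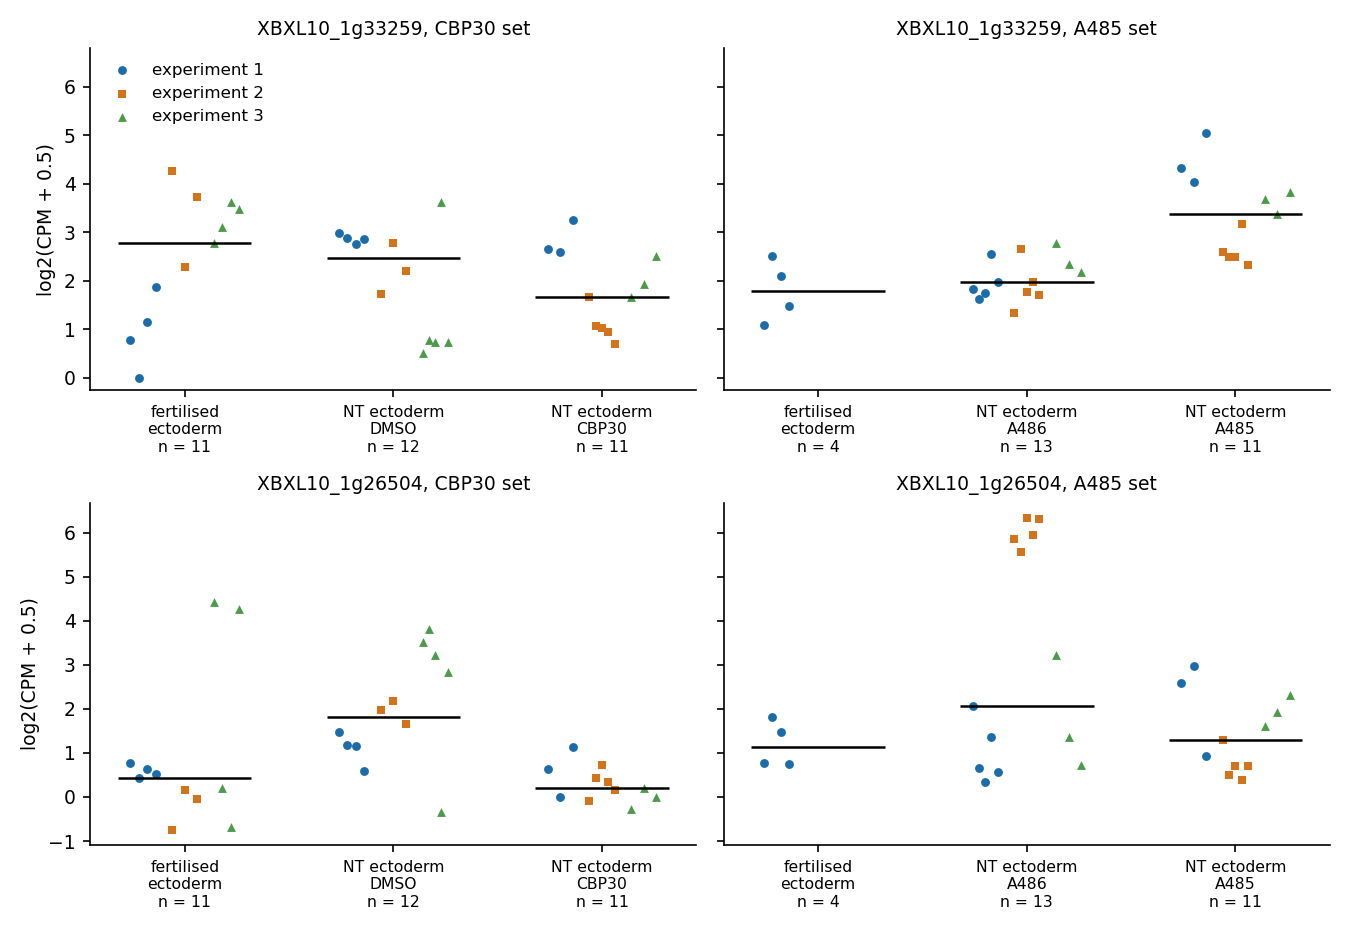
Level of XBXL10_1g33259 (top) and XBXL10_1g26504 (bottom) in every ectoderm library, as log2(CPM + 0.5) on the y axis, by group on the x axis for the CBP30 set (left) and the A485 set (right), with a line at the group median. The A485 libraries of XBXL10_1g33259 are highest in experiment 1 at 15.9 to 32.6 CPM, and the 5 A486 libraries of experiment 2 stand apart for XBXL10_1g26504 at 46.8 to 80.0 CPM.

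Whether a treatment acted unequally across the experiments was tested with an interaction term in edgeR. For A485 in NT ectoderm the term was called for 6 of 107 tested members beside 2.81% of all targets, and for CBP30 for 1 of 140 beside 0.214%. The A485 members were XBXL10_1g26504 (adjusted p 5.94e-06), XBXL10_1g35003 (0.00192), XBXL10_1g30044 (0.0159), XBXL10_1g42855 (0.0283), XBXL10_1g21066 (0.0306) and XBXL10_1g33259 (0.0389). For XBXL10_1g35003 the experiments went in different directions. In experiment 1 A485 NT ectoderm held 3.03, 0.995 and 1.42 CPM and A486 NT ectoderm 17.5 to 65.8 CPM, with no overlap. In experiment 3 A485 held 56.2, 41.3 and 80.0 CPM and A486 8.48, 51.4 and 26.8 CPM, and the groups overlapped. These A485 libraries include the one whose tissue field contradicts its title. Fitted within experiments 1, 2 and 3, edgeR called 4, 1 and 0 members for A485 (beside 0.993%, 0.496% and 0.401% of all targets) and 0, 2 and 0 for CBP30 (beside 0.123%, 0.0648% and 0.0184%). The 2 were XBXL10_1g39751 and, at a log2 fold change of 2.70 (edgeR adjusted p 0.0426), XBXL10_1g7090.

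No member was called in the donor endoderm for either inhibitor. Between A485 and A486 endoderm edgeR called 0 of 106 tested members beside 0.0% of all targets, with 7 at an unadjusted p under 0.05 (beside 3.89% of all targets), a smallest adjusted p of 0.970 and none called by DESeq2. The members nearest to a call were XBXL10_1g18250 (log2 fold change 1.69), XBXL10_1g27030 (-0.76) and XBXL10_1g4048 (-0.74). XBXL10_1g18250 (1770 bases) held 3.26, 4.29, 2.87, 3.52, 10.5 and 8.98 CPM in A485 endoderm and 0.0691, 0.519, 2.28, 1.96, 3.55 and 1.89 CPM in A486 endoderm, and only library 1 of experiment 3 of A486 lay inside the A485 range. Between CBP30 and DMSO endoderm edgeR called 0 of 139 beside 0.0%, with 12 at an unadjusted p under 0.05 (beside 11.5% of all targets) and none called by DESeq2. Within experiment 1 alone it called 4, beside 2.28% of all targets, and the DMSO libraries there helped to choose the members.

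Several members differed widely in level between experiments. In the 34 ectoderm libraries of the CBP30 set, XBXL10_1g17222 (604 bases) was at 15.1, 16.3 and 19.6 CPM (lowest, median and highest) in the 12 libraries of experiment 3. It was at no more than 0.341 CPM in experiment 1 and 0.0875 CPM in experiment 2, in fertilised, DMSO NT and CBP30 NT ectoderm alike. XBXL10_1g33831 was at 10.7, 14.8 and 17.6 CPM in the 11 libraries of experiment 1 and at no more than 0.462 and 0.410 CPM in experiments 2 and 3. By the range of experiment means in DMSO NT ectoderm these led on the log2 scale at 5.10 and 4.61, before XBXL10_1g3490 (4.45), XBXL10_1g37042 (3.77) and XBXL10_1g43070 (3.63). XBXL10_1g33831 was also graded in the A485 set by experiment, at 6.28 to 7.96, 1.28 to 2.11 and 0.0569 to 0.369 CPM in A486 NT ectoderm of experiments 1, 2 and 3.

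In A486 NT ectoderm the largest such ranges were those of XBXL10_1g26504 (4.88), XBXL10_1g30044 (3.65), XBXL10_1g33831 (3.55), XBXL10_1g15126 (2.96) and XBXL10_1g44333 (2.49). XBXL10_1g3490 (2446 bases) was low in experiment 2 alone. It was at 10.3 to 22.5 CPM in all ectoderm of experiments 1 and 3, and in experiment 2 at 0.881 to 1.35 CPM in fertilised, 0.0733 to 0.344 in DMSO NT and 1.5 to 4.94 in CBP30 NT ectoderm. The CBP30 libraries of experiment 2 lay above the DMSO ones without overlap, and this was the 1 member of that set whose response differed between experiments (edgeR adjusted p 0.00517). XBXL10_1g3490 was not called for CBP30 within experiment 2. Its counts were whole in 8.9% of the libraries scored, so its levels depend on how shared reads were split. XBXL10_1g43070 was the reverse, with at most 0.0512 CPM in ectoderm of experiments 1 and 3 and 2.56 to 14.1 CPM in 10 of 11 libraries of experiment 2. The labels used here give no date or parentage for an experiment.

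**Figure D5:**
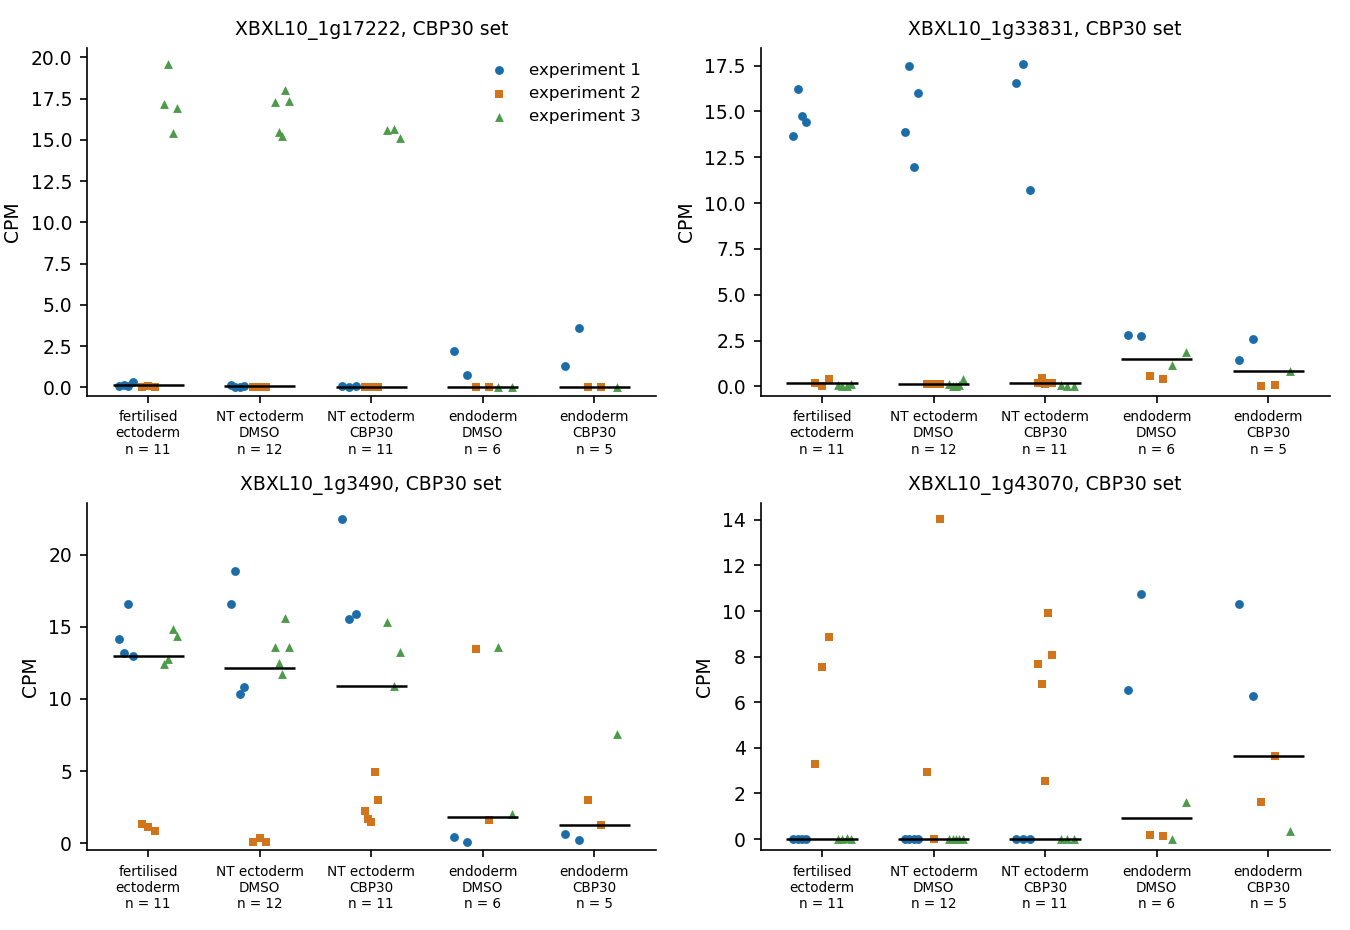
Level (CPM, linear y axis) of 4 members in every library of the CBP30 set, by group on the x axis, with the experiment shown by colour and shape and a line at the group median. XBXL10_1g17222 is at 15.1 to 19.6 CPM in ectoderm of experiment 3 alone, XBXL10_1g33831 at 10.7 to 17.6 CPM in experiment 1 alone, XBXL10_1g3490 is low in experiment 2 and XBXL10_1g43070 is present in ectoderm of experiment 2.

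Some members were near 0 throughout the A485 set. A mean under 0.5 CPM in each of its 5 groups was found for 9 of the 148: XBXL10_1g8568, XBXL10_1g3490, XBXL10_1g11396, XBXL10_1g34650, XBXL10_1g41748, XBXL10_1g6667, XBXL10_1g4681, XBXL10_1g6588 and XBXL10_1g2736. Of these XBXL10_1g4681 reached the minimum through 1 DMSO donor at 15.5 CPM and was at no more than 0.682 CPM in the other libraries of the CBP30 set. XBXL10_1g8568 (1837 bases) was the extreme, at 42.5, 54.9 and 74.7 CPM in DMSO endoderm and 14.7, 17.1 and 23.0 CPM in fertilised ectoderm of the CBP30 set, and at no more than 0.392 CPM in any A485-set library. Counts were whole in under 10% of the CBP30-set libraries scored for 6 of the 9, XBXL10_1g8568 among them with 0%, and in at least 90% for 3. The target list differs between the sets, and its part in these levels was not tested.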

How the data were processed

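Poly(A) RNA (400 ng from ectoderm, 300 ng from endoderm) was sequenced, per the labels' protocols. The deposited tables give, per library and target, expected counts, TPM and, of other values, the length of the target, per the file headers. The submitters' processing notes name kallisto 0.48, R 4.3.1 and DESeq2 1.40.2, and the genome build is not given in the sources used here. Of 115 samples in the records, 85 libraries (45 and 40) were analysed, 30 have no file here, and 4 files (1 column each) tied to no sample were not used.

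CPM is the expected count divided by the library total and multiplied by 1000000. Each comparison was fitted on all targets of its own groups with edgeR 4.0.16 in R 4.3.3 (rounded expected counts, filterByExpr, TMM, quasi-likelihood F test, two-sided, Benjamini-Hochberg over all targets tested) and called at an adjusted p under 0.05. A standard error is the absolute log2 fold change over the root of F. DESeq2 1.42.0 was an alternative. The procedure was tested on simulated data. Mitochondrial names rest on target length and consecutive identifiers only. Outside the run, 7 targets without a messenger RNA identifier share such a length, none of them a member. Libraries of a group were never closer than sampling noise.

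The members and lists were chosen with earlier results of these data known. Named members are the 10 highest, the largest called changes (up to 6 per direction, or the 3 smallest p where fewer than 3 were called), the 5 largest tissue ratios each way, the members around the minimum, the highest per length class, the 5 largest ranges between experiments in each control NT group, and neighbouring identifiers. Others named were chosen after their values were seen. Same-numbered experiments deviated together (correlation of deviations) in CBP30 NT (0.62 to 0.69), A485 NT (0.57 to 0.77), A485 endoderm (0.51 to 0.61), DMSO NT against fertilised ectoderm (0.29 to 0.58) and CBP30 endoderm (0.27 to 0.37). The main fits had no term for experiment, so their p-values and standard errors take no account of this shared deviation. A block for experiment number was an alternative.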

Additional observations from a re-analysis of the deposited data

Results flagged for a closer look

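Single libraries stood apart from the rest of their group, by a gap rule that chance meets in about 1 of 20 groups, in 10 of the 98 combinations of a measure and a group that were tested. The CBP30 donor library 1 of experiment 3 held 270.3 CPM of the ATP8-length target (XBXL10_1g44449), 686.4 CPM of the ATP6-length target (XBXL10_1g44450) and 1285 CPM of the CYTB-length target (XBXL10_1g44457), whereas the next CBP30 donors held 64.29, 178 and 531.7 CPM. The DMSO donor library 1 of experiment 1 held 22.62 CPM of XBXL10_1g39748 and 34.92 CPM of XBXL10_1g39751, with the next donors at 4.075 and 15.36 CPM. In the A485 set, fertilised library 1 held 2055 CPM over the 148 members outside the mitochondrial run, with the next at 1003 CPM, and 12.65 CPM of XBXL10_1g29678, with the next at 1.966 CPM. The A485 donor library 1 of experiment 3, whose tissue field contradicts its title, held 5.753 CPM of XBXL10_1g19746 (next 1.931 CPM). The A485 donor library 1 of experiment 2 held 9.415 CPM of XBXL10_1g27030 (next 4.623 CPM), and the A486 donor library 2 of experiment 3 held 8.686 CPM of XBXL10_1g36514 (next 1.544 CPM).

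The response to A485 in NT ectoderm differed between experiments, by edgeR's test of the interaction adjusted over all targets, for XBXL10_1g26504 (adjusted p 5.943e-06), XBXL10_1g35003 (0.001917), XBXL10_1g30044 (0.01594), XBXL10_1g42855 (0.02827), XBXL10_1g21066 (0.03063) and XBXL10_1g33259 (0.03892). The response to CBP30 differed for XBXL10_1g3490 (adjusted p 0.005175).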

How the results depend on the processing

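The numbers of members called are given under other settings where they moved by over 1.5 times. Nothing is read from a count that has no share of all targets beside it. For CBP30 in NT ectoderm (0 called) DESeq2 gave 1, experiment 2 alone 2 (beside 0.0648% of all targets), and leaving out 1 experiment 0 to 1. For A485 in NT ectoderm (1 called) at least 10 counts in every library gave 0, DESeq2 2 and leaving out the contradictory library 0. Experiment 1 alone gave 4 (beside 0.993% of all targets) and experiment 3 alone 0 (beside 0.401%). Members with whole counts gave 0 (of 7 tested), and leaving out 1 experiment 0 to 1. For XBXL10_1g26504 there, the log2 fold change of -3.22 turned to 0.574 without experiment 2 and 1.25 within experiment 1, and was -4.25 without experiment 1; the cause was not tested. A486 NT against fertilised ectoderm (39) fell to 2 of 7 with whole counts. A486 endoderm against fertilised ectoderm (54) gave 25 with at least 10 counts, 4 of 8 with whole counts and 31 to 54 with 1 library left out, lowest without A486 donor library 2. A486 NT ectoderm against endoderm (87) gave 30 and 7 of 8, DMSO endoderm against fertilised ectoderm (114) gave 55 and 20 of 27, and DMSO NT ectoderm against endoderm (110) gave 54 and 20 of 28; fewer members were tested in each. DMSO NT against fertilised ectoderm (10) gave 5 with no filter, 6 with at least 10 counts and 17 with DESeq2. It gave 21 and 1 within experiments 2 and 3, beside 22.9% and 4.41% of all targets. It gave 0 of 21 with whole counts and 4 to 10 without 1 experiment, lowest without experiment 2. CBP30 endoderm (0) gave 4 within experiment 1, beside 2.28% of all targets. The block for experiment number gave 18 for DMSO NT against fertilised ectoderm (beside 30.8% of all targets) and moved no other count by over 1.5 times.

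Members low in NT ectoderm often went untested there. For CBP30, 21 of 161 failed the filter on low counts and, of the 148 listed in the A485 set, 41 failed it for A485. Of the 26 endoderm members 9 were tested for CBP30 and 4 for A485, against 22 of the 23 ectoderm members for each.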
